A study of Mus musculus with 4 samples.

Results

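The cells described here are leukocytes of the monocyte and macrophage lineage with little RNA of the complement genes C1qa, C1qb and C1qc that as a group hold RNA of the inflammatory genes Nos2 and Il6, here called C1q-low inflammatory macrophages. They made up 2532 of the 51841 barcodes that passed the limits on genes and mitochondrial RNA, out of 55090 deposited. Tumours of KPC, a mouse pancreatic cancer line that derives from mice with Pdx1-driven Cre, were grown under the skin of adult male C57BL/6 mice, and live CD45+ cells were sorted from them on the day of resection for droplet single-cell RNA sequencing. The 4 groups compared were untreated mice, mice given ADU-S100, a cGAMP analog that activates STING, once into the tumour, mice given anti-LTβR, an antibody that activates the lymphotoxin-β receptor, intraperitoneally and repeatedly, and mice given both agents (combination). Wherever 4 values follow each other, they are in that order. Tumours were pooled within each group, so each group was 1 library. Treatment and library cannot be told apart, differences between groups have no replicate check, and none was tested. All intervals are 95% intervals that cover counting error only. The study asked how activation of STING, LTβR or both changed the leukocytes of the tumour.

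Macrophages that carry out complement-linked clearance make much C1q, whereas cells that have newly come from blood monocytes make little and are known for inflammatory cytokines. Inducible nitric oxide synthase, the product of Nos2, makes nitric oxide and is induced in macrophages by microbial products and interferon-γ. Clec5a encodes an activating C-type lectin of myeloid cells, Ecm1 a secreted matrix glycoprotein and Il6 an inflammatory cytokine. STING is a sensor of cyclic dinucleotides that signals to IRF3 and NF-κB, and LTβR signals mainly to NF-κB.

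A barcode with 300 to 5000 genes and at most 6% mitochondrial unique molecular identifiers (UMIs) was a member when it held under 10 UMIs per 10000 of the C1q genes in sum, fewer than 2 of Mmp12, Mmp13, Gpnmb and Pgf (here called the remodelling genes), a Csf1r UMI or at least 5 Lyz2 UMIs per 10000, and no UMI of Cd3e, Cxcr2 or Flt3. The rule also set a minimum level of 1 further gene, so these conditions alone do not give the members. Members were thus chosen by measured values, and the levels of the rule's genes are a description and support nothing. There were 245, 632, 886 and 769 members. On the C1q limit 42, 60, 88 and 94 members lay between 5 and 10 per 10000, and 26, 45, 74 and 68 cells were kept out at 10 to 15. One remodelling gene was detected in 78, 291, 320 and 236 members, and 42, 195, 153 and 94 cells were kept out with exactly 2.

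The libraries differed in depth. Members held a median of 5561, 6995, 4483 and 2720 UMIs and 1381779, 4352790, 4080764 and 2312524 UMIs in sum, so the untreated sums are the smallest and set the precision of most comparisons, and the combination cells were the shallowest. Under 2000 UMIs were 16.7, 17.1, 20.3 and 38.0% of members. Between 34 and 83 barcode sequences were shared by each pair of libraries, and none of them was a member in both. Levels below are CPM, the UMIs of a gene per 1000000 UMIs, from UMIs summed over the members of a library.

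The markers of the label are described next. They were chosen with earlier results of these data known, so their levels do not check the label. In the members Nos2 stood at 533, 741, 778 and 666 CPM. In C1q-high macrophages, which met the same lineage conditions with C1q at or above the limit, it stood at 74.3, 177, 158 and 134 CPM. T cells, here barcodes with a Cd3e UMI and no UMI of Csf1r or Lyz2, should lack Nos2, and there it was 4.42 to 6.24 CPM. This condition leaves out T cells that took up Csf1r or Lyz2 RNA. Levels in T cells, here and below, may thus be lower than those that free RNA gives. Il6 stood at 97.7, 309.9, 181 and 212 CPM in the members and at 11.9, 48.3, 46.0 and 32.9 CPM in C1q-high macrophages. Clec5a was at 243, 272, 355 and 249.9 CPM and Ecm1 at 363, 694, 546 and 648 CPM. These 4 markers were higher in the members than in C1q-high macrophages of the same library. Remodelling macrophages, which have low C1q and 2 or more remodelling genes, lay closer to the members and within 2-fold of them for each of the 4. Nos2 stood at 444, 727, 814 and 576 CPM there, higher than in the members with anti-LTβR and lower in the other libraries. Clec5a, at 167, 178, 285 and 164 CPM, and Il6, at 74.0, 261, 153 and 129 CPM, were lower there than in the members of each library.

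**Figure D1:**
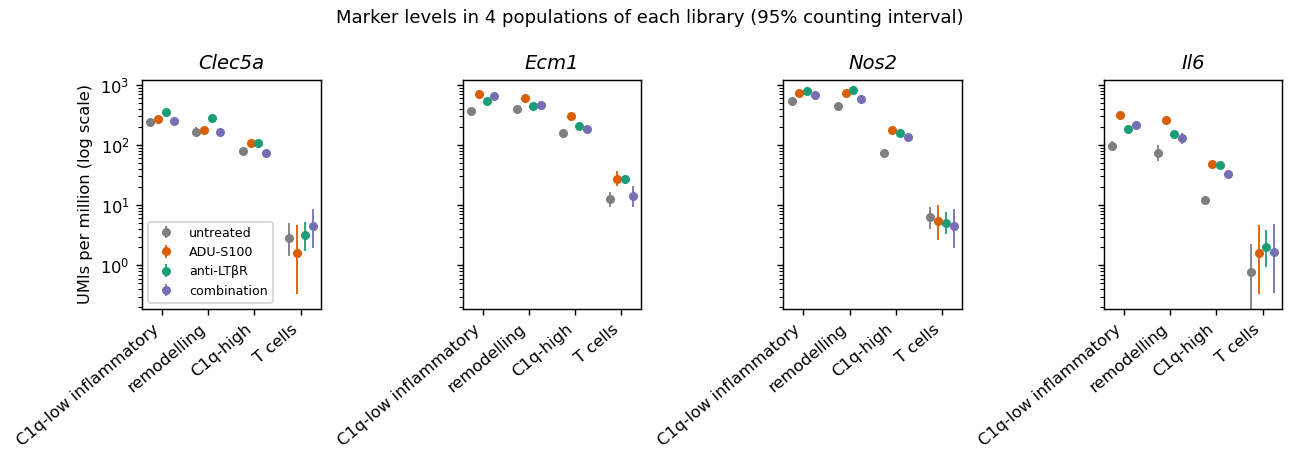
Levels of Clec5a, Ecm1, Nos2 and Il6 in 4 populations of each library, in CPM on a log axis. Each point is 1 library, bars are exact Poisson 95% intervals of counting error and are often smaller than the point. Nos2 in C1q-low inflammatory macrophages lies between 533 and 778, against 74.3 to 177 in C1q-high macrophages and 4.42 to 6.24 in T cells.

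Genes of the monocyte and macrophage lineage were present. Csf1r, the receptor for the macrophage growth factor CSF1, was detected in 82.9, 86.6, 86.1 and 76.6% of members, and the monocyte chemokine receptor gene Ccr2 stood at 617, 489, 702 and 632 CPM. Ly6c2, a marker of inflammatory monocytes, was at 360.4, 199, 399 and 331 CPM. The members also held RNA of neutrophils. The 9 neutrophil markers summed to 496, 1002, 379.6 and 400.0 CPM, with Cxcr2 at 0 by the rule, Ltf and Camp at 0 in the untreated members, Ly6g and Camp with anti-LTβR and Ly6g with the combination. A UMI of S100a8 or S100a9, which neutrophils make in large amounts, was found in 8.57, 34.3, 9.14 and 10.7% of members, and in 1.18, 21.5, 3.49 and 4.93% of T cells. Neutrophil-like barcodes were 6.75, 31.5, 7.43 and 9.47% of their libraries, so the ADU-S100 library was the highest of the 4 on all of these measures. Other lineages were at low levels. With Cd3e and Flt3 at 0 by the rule, the 6 T cell markers summed to 7.35 to 12.5 CPM, the 3 NK cell markers to 2.30 to 36.0 CPM, the 7 dendritic cell markers to 5.97 to 30.3 CPM (Xcr1 at 0 in 3 libraries), the 3 mast cell and basophil markers to at most 0.865 CPM and the 7 carcinoma and stroma markers to 5.28 to 28.9 CPM. The 5 B cell markers summed to 10.1, 4.37, 237 and 89.1 CPM, nearly all of it Jchain, the joining chain of secreted antibodies, whose level in T cells was also higher in the last 2 libraries (5.46, 2.70, 219 and 258 CPM).

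The first comparison asked how large the population was in each group. C1q-low inflammatory macrophages were 3.15% of barcodes in the untreated library (95% Clopper-Pearson interval 2.77 to 3.56%). The ADU-S100 library held 4.41% (4.08 to 4.76%). Anti-LTβR gave the largest share, 6.31% (5.91 to 6.72%), and the combination gave 4.90% (4.57 to 5.25%). All 3 treated libraries thus held a larger share than the untreated one. Relative to untreated, anti-LTβR stood at 2.003 (1.74 to 2.30), the combination at 1.55 (1.35 to 1.79) and ADU-S100 at 1.40 (1.21 to 1.62). Divided by the anti-LTβR share, that of the combination was 0.776 (0.707 to 0.853), and divided by the ADU-S100 share it was 1.11 (1.00 to 1.23). As a share of monocytes and macrophages, members were 6.13, 10.1, 11.4 and 8.55%. Here ADU-S100 stood at 1.65 (1.43 to 1.90) relative to untreated, anti-LTβR at 1.87 (1.63 to 2.14) and the combination at 1.40 (1.22 to 1.60). On this denominator the combination stood below ADU-S100 (ratio 0.846, 0.766 to 0.935), the other way round than among all barcodes. The share with ADU-S100 depended most on how neutrophil RNA was treated. Without neutrophil-like barcodes in the denominator the shares were 3.38, 6.42, 6.81 and 5.41%, and the ADU-S100 ratio to untreated was 1.90. When members also had to lack S100a8 and S100a9, the shares were 2.88, 2.90, 5.73 and 4.38%, and that ratio was 1.01, while 21.5% of T cells in the same library held one of these transcripts. The part of neutrophil RNA in the ADU-S100 share was not tested. Anti-LTβR and the combination held a larger share than untreated on every denominator and rule tried.

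**Figure D2:**
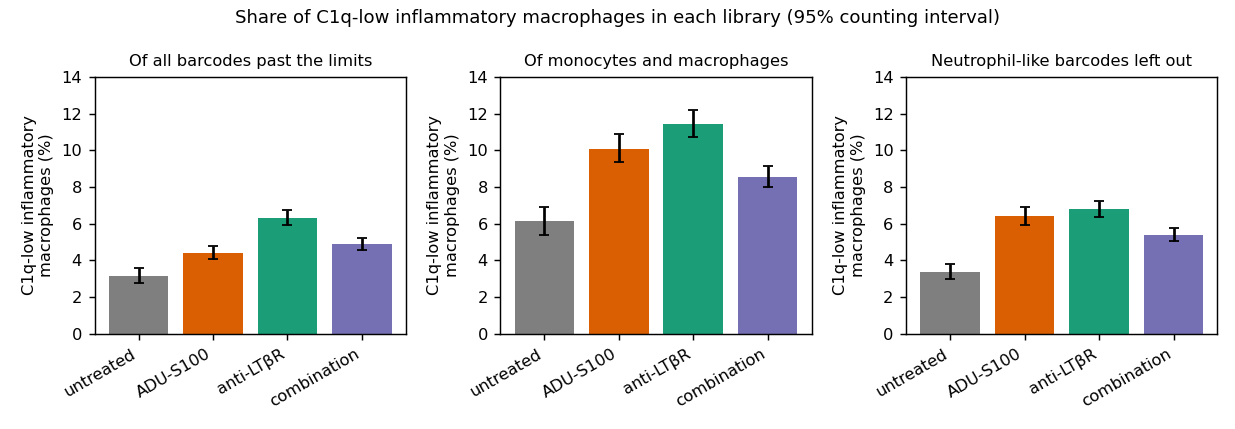
Share of C1q-low inflammatory macrophages in each library, in percent, over 3 denominators. Each bar is 1 library and its error bar the Clopper-Pearson 95% interval of counting error. The untreated bar is the lowest in each panel (3.15, 6.13 and 3.38%), and the order of ADU-S100 and the combination differs between the left panel and the other two.

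Nos2 and Il6 were read in single members as well. A Nos2 UMI was found in 38.0, 58.9, 50.7 and 40.8% of members, against 0.473, 2.28, 1.19 and 0.800% of T cells. Thinned to 2000 UMIs per cell, with shallower cells left out (204, 524, 706 and 477 members stayed), the shares were 29.4, 48.5, 45.8 and 40.7%. At equal depth the untreated share was the lowest of the 4. Its counting interval was 23.3 to 36.18% and that of the next, the combination, 36.23 to 45.2%, which concerns these libraries in 1 random thinning and not the treatments. An Il6 UMI was found in 12.7, 25.2, 14.9 and 14.7% of members, and in 8.82, 19.8, 11.8 and 15.1% after thinning. Clec5a was detected in 46.9, 55.5, 55.9 and 35.1% and, thinned, in 33.3, 38.4, 41.9 and 33.3%. Ecm1 was detected in 50.6, 68.5, 58.2 and 45.9%, and thinned in 31.4, 51.0, 49.2 and 49.5%. The low unthinned share of Ecm1 with the combination was thus a low share only at that library's own depth. Both Nos2 and Il6 were seen in 3.92, 10.3, 6.66 and 8.60% of thinned members. Il6 was seen in 13.3, 21.3, 14.6 and 21.1% of thinned members with Nos2, and in 6.94, 18.5, 9.40 and 10.95% of those without.

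Members differed among themselves. The 10% of members with most Il6 held 94.8, 82.7, 94.2 and 92.7% of all Il6 UMIs, and a single cell held 20.7% of the Il6 of the untreated library. For Nos2 the top 10% held 70.9, 51.4, 57.2 and 61.3%.

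Genes that the rule did not use were set against the 2 populations most like the members. This is a description, since the populations were cut by gene levels in the same cells, and a gene was counted when it was at least 2-fold higher, or lower, in each of the 4 libraries. Against C1q-high macrophages 201 of 10191 genes were higher (1.97%) and 440 lower (4.32%), with a median log2 ratio of -0.27 over all of them. Of 21 matrix and coagulation genes 12 were higher, among them Fn1 (fibronectin), Thbs1 (thrombospondin), Vcan (versican), F10 and F3 (coagulation factor X and tissue factor). Also higher were 7 of 18 cytokines, namely Il1a, Il6, Il23a, Osm, Lif, Csf1 and Areg, while Il12b and Tnfsf13b were lower. Of 20 chemokines 3 were higher (Ccl24, Cxcl2 and Cxcl3) and 6 lower, with a median log2 ratio of -0.31. The lower chemokines were Ccl8, Ccl12, Ccl17, Cxcl9, Cxcl14 and Pf4. Of 11 activating lectins and TREM genes 5 were higher. Of 27 genes of hypoxia and glycolysis with enough UMIs, out of 28 listed, 9 were higher and none lower, with a median log2 ratio of 0.86. The 9 were Slc2a1, Hk1, Slc16a3, Ndrg1, Bnip3, Egln3, Ero1a, Hilpda and Ankrd37. Egln3, a prolyl hydroxylase that marks HIF for degradation, stood at 353, 409, 444 and 448 CPM in the members against 39.8, 72.5, 72.7 and 60.8 CPM in C1q-high macrophages. Spp1, the secreted phosphoprotein osteopontin, stood at 1596, 2411, 1473 and 1745 CPM in the members against 446, 1058, 564 and 468 CPM in C1q-high macrophages. Vegfa, the vascular growth factor, stood at 774, 906, 779 and 809.9 CPM against 333, 510.5, 348 and 400.2 CPM. The syndecan gene Sdc1 had log2 ratios of 3.09, 3.26, 3.25 and 3.51, and the chemokine gene Cxcl3 of 4.97, 3.07, 3.84 and 4.07. With both populations thinned to 2000 UMIs per cell, 155 of the 201 and 268 of the 440 genes were counted again. Lower were 4 of 8 genes of MHC class II presentation and 11 of 15 cell cycle genes. Of 13 genes of scavenger receptors and alternative activation, 5 were lower, Folr2 and Cd163 among them, and Chil3 was higher. The median log2 ratio of these genes was -1.29. H2-Aa, an MHC class II chain, stood at 2849, 1888, 2792 and 2871 CPM in the members and 6443, 6168, 6899 and 8213 CPM in C1q-high macrophages. Against remodelling macrophages only 6 of 5339 genes were higher (0.112%) and 23 lower (0.431%). The 6 were Cxcl10, Hopx, Nt5dc2, Vcan, Thbs1 and Spint1, and Pf4, Igf2bp2 and Mt2 were among the lower. Of the 6 and 23 genes, 1 and 18 were counted again when both populations were thinned to 2000 UMIs per cell, so most of the higher genes of this comparison did not hold at equal depth.

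The next comparison asked how the members of the ADU-S100 library differed from those of the untreated one. A gene was called when it differed by at least 2-fold with at least 200 UMIs over both libraries. A gene with few UMIs in 1 library could pass only through the other, and then it had to differ, here and in the later comparisons. Of 4147 genes, 96 were higher (2.31%) and 105 lower (2.53%), and the median log2 ratio was -0.13. With median-of-ratios scaling the median became 0.12 and the calls 161 and 45, so the balance of higher and lower calls depends on the scaling. Of 19 cytokines listed, 14 passed the filter and 9 of these were called higher and none lower, with a median log2 ratio of 1.59. The filter is on the sum of both libraries, so Il23a and Il10 among others passed through their ADU-S100 UMIs and had to differ, and the count and median are in part fixed by it. Over the 9 cytokines that also passed with the other treated libraries against untreated (Areg, Il1a, Il1b, Il1rn, Il6, Osm, Tgfb1, Tnf and Tnfsf9), 6 were called higher and the median was 1.51, against 0.68 with anti-LTβR and 0.78 with the combination.

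The interleukin-1 genes encode early inflammatory cytokines that act on many cell types. Il1b stood at 5143, 10916, 8297 and 8822 CPM, a log2 ratio of 1.09 (1.05 to 1.12) for ADU-S100 against untreated. Il1a stood at 489, 1662, 888 and 840.2 CPM (1.77, 1.65 to 1.88). Il6 had a log2 ratio of 1.66 (1.41 to 1.93) from the levels given above. The ADU-S100 library was the highest of the 4 for all of them and the untreated library the lowest. Tnf, the gene of tumour necrosis factor, stood at 99.9, 336, 134 and 131 CPM (1.75, 1.499 to 2.01). Il23a, the p19 chain of interleukin-23, stood at 6.51, 137, 20.1 and 25.1 CPM (4.32, 3.46 to 5.53), from 9 and 597 UMIs. Il10, an inhibitory cytokine, stood at 7.24, 48.0, 19.4 and 16.9 CPM (2.66, 1.82 to 3.81), from 10 untreated UMIs of which 5 lay in 1 cell. Areg, the epithelial growth factor amphiregulin, stood at 19.5, 184, 109.5 and 138 CPM (3.21, 2.69 to 3.85), with 37.0% of its 27 untreated UMIs in 1 cell. It was above 2-fold in all 3 treated libraries. T cells held Areg at 293, 169, 204 and 200.03 CPM, without the low untreated value. Lif and Tnfsf9 were the remaining calls, with log2 ratios of 2.03 and 1.51.

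Among 16 chemokines that passed, of 23 listed, 4 were called higher and 1 lower, and the median was 0.60. Over the 14 that passed with each treated library against untreated, which leave out Cxcl1, 3 were higher and 1 lower, with the same median. The higher genes besides Ccl3 attract neutrophils through CXCR2. Cxcl2 stood at 4861, 13583, 6627 and 7568 CPM (1.48, 1.45 to 1.52), and Cxcl3 at 672, 1839, 552 and 927 CPM (1.45, 1.35 to 1.55). Cxcl1 had no UMI in the untreated members, which allows up to 2.17 CPM (3 counts), and 302 UMIs or 69.4 CPM with ADU-S100, so it was at least 32.0-fold higher there, with 16.9% of those UMIs in 1 cell. Ccl3 stood at 402, 923, 313 and 376 CPM (1.20, 1.07 to 1.33), and Ccl5, which attracts lymphocytes, stood at 221, 98.6, 193 and 221 CPM (-1.16, -1.38 to -0.95). Ccl5 lost its call in 3 of 10 alternatives, median-of-ratios scaling among them, whereas the calls of Il1a, Il1b, Il6, Il23a, Tnf, Lif, Areg, Cxcl2 and Cxcl3 held in each alternative that gave a value. Ccl3 lost its call when Csf3r was required at 0 UMIs (0.99). Neutrophil RNA moves with these genes, so the level in T cells is given beside them. Il1b stood at 89.2, 581, 170 and 293 CPM in T cells, and Cxcl2 at 82.9, 911, 110 and 340.4 CPM. Between the untreated and ADU-S100 libraries the difference in CPM was smaller in T cells than in members for both genes, and the ratio was larger in T cells. With S100a8 and S100a9 at 0 UMIs, Il1b had a log2 ratio of 1.06, Il6 of 1.64 and Cxcl2 of 1.42. The part of neutrophil RNA or free RNA in these results was not tested.

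The promoters of these genes are shown because several of them share the letters of a known NF-κB site near the start of transcription. Of the 13 cytokine and chemokine genes called higher with ADU-S100, 10 are in the promoter table of RefSeq (GRCm38.p6), and Il10, Il23a and Tnfsf9 were not looked up elsewhere. The letters GGGA, any 4 bases and CC, searched on both strands in the 250 bases before the start, were found in 5 of the 10, against 17.6% of 32851 promoter entries of all genes. Among the 8 of these genes that passed the filter with each treated library, it was found in 3, Cxcl2 and Cxcl3 among them. Cxcl1, Cxcl2 and Cxcl3 are related genes that lie close together on chr5, so their matches are not independent. The counts therefore cannot be read as an excess over the share of all entries. No match says only that these letters are not in the window. Each sequence is the plus strand, written in the direction of transcription up to the base before the start, with matches on either strand in capitals. The regions are chr5:30012864-30013113 for Il6, chr11:4257318-4257567 for Lif, chr5:90890995-90891244 for Cxcl1, chr5:90903649-90903898 for Cxcl2 and chr5:90785851-90786100 for Cxcl3.
Il6: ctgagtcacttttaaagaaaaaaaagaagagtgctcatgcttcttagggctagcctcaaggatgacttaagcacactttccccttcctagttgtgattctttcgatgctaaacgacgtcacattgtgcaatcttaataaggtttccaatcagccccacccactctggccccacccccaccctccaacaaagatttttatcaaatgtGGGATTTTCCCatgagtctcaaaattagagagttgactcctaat
Lif: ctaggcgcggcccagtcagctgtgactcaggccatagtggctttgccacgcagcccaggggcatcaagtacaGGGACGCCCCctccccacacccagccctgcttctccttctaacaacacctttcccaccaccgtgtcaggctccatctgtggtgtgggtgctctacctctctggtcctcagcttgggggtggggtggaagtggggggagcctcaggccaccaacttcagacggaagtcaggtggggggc
Cxcl1: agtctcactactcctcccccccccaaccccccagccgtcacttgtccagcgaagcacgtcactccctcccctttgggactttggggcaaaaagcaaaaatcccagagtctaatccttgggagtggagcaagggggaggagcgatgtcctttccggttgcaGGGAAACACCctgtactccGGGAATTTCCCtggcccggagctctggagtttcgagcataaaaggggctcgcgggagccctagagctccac
Cxcl2: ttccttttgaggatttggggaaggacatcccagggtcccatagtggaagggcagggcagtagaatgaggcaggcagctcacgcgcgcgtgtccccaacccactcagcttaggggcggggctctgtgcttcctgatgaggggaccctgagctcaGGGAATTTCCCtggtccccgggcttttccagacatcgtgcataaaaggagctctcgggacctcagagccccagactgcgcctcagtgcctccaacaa
Cxcl3: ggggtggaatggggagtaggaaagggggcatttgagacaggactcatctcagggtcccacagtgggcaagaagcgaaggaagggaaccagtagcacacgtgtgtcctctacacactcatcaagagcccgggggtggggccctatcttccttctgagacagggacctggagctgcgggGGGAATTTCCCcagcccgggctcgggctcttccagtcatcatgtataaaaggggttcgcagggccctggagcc
The capitals end 34 bases before the start in Il6, 169 in Lif, 61 in Cxcl1, 87 in Cxcl2 and 63 in Cxcl3. Cxcl1 holds a pair of separate matches, and the matched runs of Cxcl1, Cxcl2 and Cxcl3 nearest the start have the same letters.

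Some genes of the NF-κB pathway and of prostaglandin synthesis were higher with ADU-S100 as well. Of 16 STING, LTβR and NF-κB components that passed, 3 were called higher. Nfkbia, the inhibitor IκBα that NF-κB itself induces, stood at 1007, 2685, 1523 and 1825 CPM (1.41, 1.33 to 1.496), and Tnfaip3, the inhibitor A20, at 358, 820.2, 478 and 529 CPM (1.20, 1.06 to 1.34). The remaining one, Tnfrsf1b, a TNF receptor, was just past the limit at 1.019 and lost its call in 3 of 11 alternatives. Sting1 itself stood at 54.3, 48.0, 54.6 and 52.8 CPM and Ltbr at 45.6, 37.0, 44.4 and 42.8 CPM, so the RNA of neither target differed by 2-fold between libraries. Ptgs2, the cyclooxygenase of prostaglandin synthesis, stood at 1002, 2548, 1575 and 1578 CPM (1.35, 1.27 to 1.43). Ptges, a prostaglandin E synthase, stood at 19.5, 59.5, 23.03 and 26.8 CPM (1.58, 1.03 to 2.24), but passed the filter through its ADU-S100 UMIs and had to differ. Clec4e, the lectin Mincle, stood at 359.7, 995, 529 and 516 CPM (1.47, 1.33 to 1.60), and Cd14, a co-receptor for lipopolysaccharide, at 1670.3, 3579, 2190.0 and 2542 CPM (1.10, 1.04 to 1.16), a call that was lost with Csf3r at 0 UMIs (0.997). Of 20 matrix and coagulation genes that passed, Mmp8, Mmp19 and F3 were called higher. F3 stood at 41.3, 124, 48.3 and 60.1 CPM (1.58, 1.19 to 2.01) and Mmp19 at 137, 360.2, 253 and 308 CPM (1.39, 1.18 to 1.62). Mmp8 is also a neutrophil gene. The median of genes that respond to tissue dissociation and heat shock also lay above 0. Of 13 that passed, of 15 listed, Egr1, an immediate early transcription factor, was called higher at 128, 424, 237 and 239 CPM (1.72), 8 lay above 0, and the list median was 0.46 with ADU-S100, 0.25 with anti-LTβR and 0.34 with the combination. The part of cell handling in these results was not tested. Outside the lists, Ckap2l (2.91), Arl5c (2.58), Zc3h12c (2.20) and Dusp2 (2.05) had the largest log2 ratios among genes of which no cell held over 20% of the UMIs of either library. Their untreated UMIs were 35, 17, 23 and 41, so they passed the filter through their ADU-S100 UMIs and had to differ.

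Hypoxia genes differed little between these libraries. Of 26 hypoxia and glycolysis genes none was called in either direction, 22 lay above 0 and the median was 0.18.

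Mrc1 and Ciita were lower with ADU-S100. Of 8 genes of scavenger receptors and alternative activation that passed, of 15 listed, Mrc1 was the 1 called, 5 lay above 0 and the median was 0.086. Mrc1, the mannose receptor CD206, stood at 595, 151, 307 and 284 CPM (-1.98, -2.13 to -1.83). Ciita, the master activator of MHC class II genes, stood at 125, 42.0, 135 and 115 CPM (-1.57, -1.88 to -1.27), and all 8 MHC class II genes that passed had ratios below 0, with a median of -0.60. H2-Aa had a log2 ratio of -0.59 and the invariant chain gene Cd74 of -0.50, short of 2-fold. Of 12 MHC class I genes none was called, 5 lay above 0 and the median was -0.14, close to that of all genes, and it turned to 0.11 with median-of-ratios scaling. Interferon genes were not higher in this library. Of 27 type I interferon response genes that passed, of 30 listed, none was called higher, Ifit3 was called lower at -1.21 (a call lost in 2 of 8 alternatives), and 3 were above 0, with a median of -0.35. Isg15, a ubiquitin-like interferon target, stood at 719, 687, 965 and 921 CPM. Iigp1, an interferon-γ-induced GTPase, stood at 86.8, 18.8, 58.8 and 35.5 CPM (-2.20, -2.63 to -1.79). With 120 untreated and 82 ADU-S100 UMIs, it passed the filter through its untreated UMIs and had to differ. Only 5 alternatives gave it a value. The list median stayed below 0 under each alternative (-0.44 to -0.10), although the median over all genes crossed 0 with median-of-ratios scaling. Trerf1 (-2.35), Pvt1 (-2.26) and Frmd4b (-1.87) were the lowest outside the lists by the same rule.

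**Figure D3:**
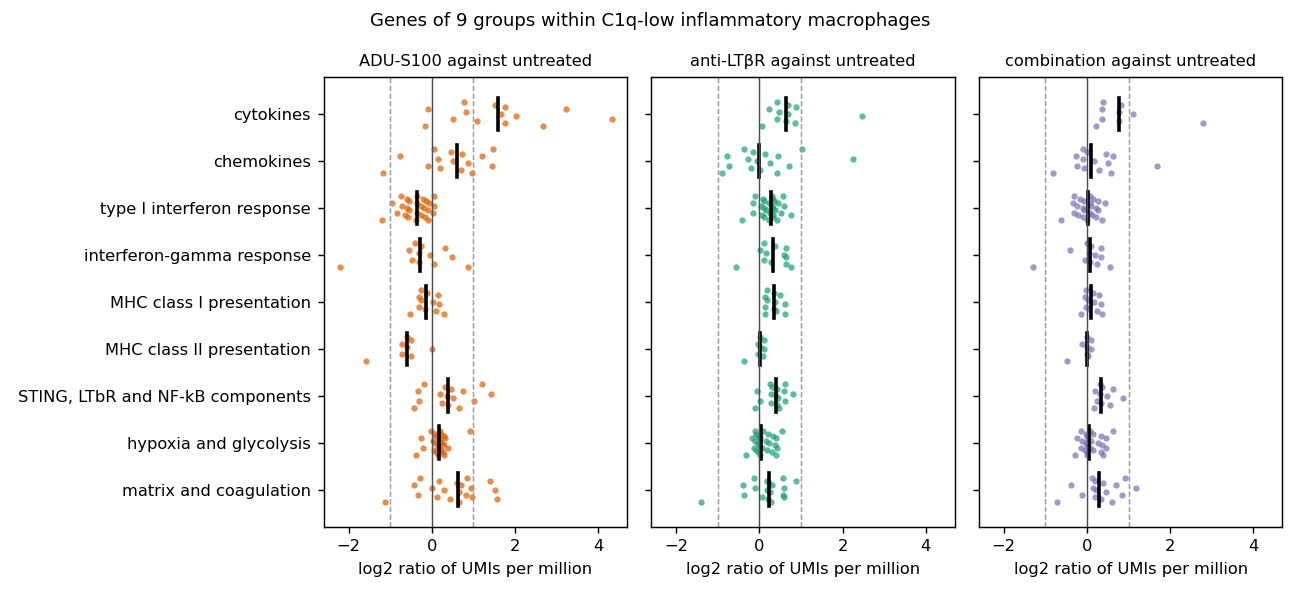
Log2 ratio of each treated library against untreated for the genes of 9 groups that passed the filter. Each point is 1 gene, black bars are medians and dashed lines mark 2-fold. Cxcl1, with 0 untreated UMIs, is left out of the points. The genes that passed differ between panels. Over the 14, 11 and 9 cytokines that passed, the median is 1.59, 0.63 and 0.78, and over the 9 that passed in every panel it is 1.51, 0.68 and 0.78.

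With anti-LTβR alone, 36 of 4236 genes were called higher (0.85%) and 28 lower (0.661%), and the median was -0.03. All 11 cytokines that passed lay above 0, with a median of 0.63, but only Areg was called (2.46, 1.93 to 3.10). The eosinophil attractant gene Ccl24 stood at 58.6, 83.4, 283 and 188 CPM (2.26, 1.94 to 2.61), with 34.6% of its untreated UMIs in 1 cell. In remodelling macrophages Ccl24 was at 1176, 342, 434 and 159.8 CPM, so its order across libraries was not the same there. Cxcl10, an interferon-induced T cell attractant, stood at 274, 450.3, 561 and 389.6 CPM (1.03, 0.88 to 1.19), just past the limit, and lost its call with S100a8 and S100a9 at 0 UMIs. Fpr2, a formyl peptide receptor, stood at 47.0, 83.2, 128 and 83.9 CPM (1.43, 1.07 to 1.84), and Ly6i, of the Ly6 surface protein family, had the largest ratio outside the lists (1.61, 1.40 to 1.83), at 146, 149, 447 and 293 CPM. Interferon and MHC class I genes were a little higher as groups. Of 28 type I interferon genes 24 lay above 0 with a median of 0.27, of 12 interferon-γ genes 11 with a median of 0.34, and all 12 MHC class I genes with a median of 0.35, although none of these was called. Lower, close to the limit, were Apoe, a lipid carrier (-1.05), and Adgre1, the macrophage antigen F4/80 (-1.05). Apoe lost its call in 5 of 11 alternatives and Adgre1 in 3 of 10. Psd3 (-1.75), Arhgap22 (-1.72), St7 (-1.68), Hdac9 (-1.44) and Dip2c (-1.36) were the lowest outside the lists, and 16.1% of the untreated St7 UMIs came from 1 cell. Jchain had a log2 ratio of 4.63 here, beside the levels in T cells given above, and 58.0% of its anti-LTβR UMIs lay in 1 member.

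With the combination, 30 of 3209 genes were called higher than in untreated members (0.935%) and 15 lower (0.467%). Fewer genes had enough UMIs, since these are the smallest 2 sums. Areg (2.79, 2.25 to 3.44) and Il6 (1.12, 0.84 to 1.41) were the called cytokines of 9 that passed, and all 9 lay above 0, with a median of 0.78. Il6 fell short of 2-fold when each member was weighted equally (0.66). Ccl24 (1.67, 1.34 to 2.04), Mmp19 (1.17, 0.94 to 1.41) and Chil3, a chitinase-like secreted protein of macrophages, were also called. Chil3 stood at 128, 173, 232 and 279.8 CPM (1.12, 0.89 to 1.38). Mt2, a metallothionein, stood at 46.3, 39.1, 64.0 and 116 CPM (1.32, 0.93 to 1.75). Traf1 (1.44), an adaptor of TNF receptors, and Sdc1 (1.25), the proteoglycan syndecan-1, were called outside the lists. Lower were Mrc1 (-1.07, -1.22 to -0.92) and Iigp1 (-1.29, -1.72 to -0.88), in a comparison that shares the untreated library with that of ADU-S100. Iigp1 passed the filter through its untreated UMIs here too. Mrc1 lost its call with median-of-ratios scaling and with Csf3r at 0 UMIs (-0.94 at the least), Chil3 with the mean over cells and with Csf3r at 0 UMIs (0.87 at the least), and Sdc1 with thinned members (0.96). The type I interferon median was 0.03 and that of MHC class II 0.01.

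The last comparisons set the combination against each agent alone. Against ADU-S100, 45 of 4510 genes were higher (0.998%) and 29 lower (0.643%). Most of the lower genes named here are those that ADU-S100 alone had high, and both comparisons share the ADU-S100 library. Il23a (-2.44, -2.87 to -2.06), Cxcl1 (-1.67, -2.14 to -1.25), Il10 (-1.49, -2.04 to -1.01), Tnf (-1.35, -1.54 to -1.18), Ccl3 (-1.30, -1.40 to -1.19), Tnfsf9 (-1.15, -1.40 to -0.91) and Ccl2 (-1.06, -1.16 to -0.96) were lower with the combination. Il10 lost this call with thinned members, Ccl2 with thinned members and with S100a8 and S100a9 at 0 UMIs (-0.92 at the least), Tnfsf9 with the mean over cells and Ccl3 with Csf3r at 0 UMIs. Il1b (-0.31, -0.33 to -0.28) and Il6 (-0.54, -0.70 to -0.40) were lower by less than 2-fold. Ccl5 (1.17, 0.98 to 1.36) and Ccl24 (1.17, 0.97 to 1.38) were the chemokines called higher. The cytokine median was -0.55, with 3 of 14 above 0, but Il23a and Il10 passed through their ADU-S100 UMIs here too. Over the 9 cytokines that passed in all 3 comparisons with untreated, 2 were called lower, 2 lay above 0 and the median was -0.47. Ciita was higher (1.45, 1.18 to 1.73), all 8 MHC class II genes lay above 0 with a median of 0.60, and so did 26 of 27 type I interferon genes, with a median of 0.33. Plxdc2 (2.38), Pltp (1.76), Mt2 (1.57) and Ptpn22 (1.47) had the largest ratios among genes of which no cell held over 20% of the UMIs of either library. Neutrophil markers moved here too, with S100a9 at -1.53 (-0.99 with Csf1r detected), and with S100a8 and S100a9 at 0 UMIs the calls were 27 higher and 14 lower.

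Against anti-LTβR alone, the fewest genes of the 5 comparisons were called, with 7 of 4601 higher in the combination (0.152%) and 12 lower (0.261%). Ednrb, an endothelin receptor (1.017), and Adgrl2 (1.01) were higher, close to the limit. Ifit1 stood at 39.1, 34.5, 66.2 and 24.6 CPM and was lower (-1.41, -1.86 to -1.01), and Ccnd2, cyclin D2, was lower at -1.01, a call lost in 5 of 10 alternatives (-0.75 at the least). Ednrb lost its call in 1 of 10 and Adgrl2 in 2 of 5. Of 28 type I interferon genes 1 lay above 0, with a median of -0.28, and the interferon-γ median was -0.30. Cytokines were level, with a median of 0.01 and 6 of 12 above 0.

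**Figure D4:**
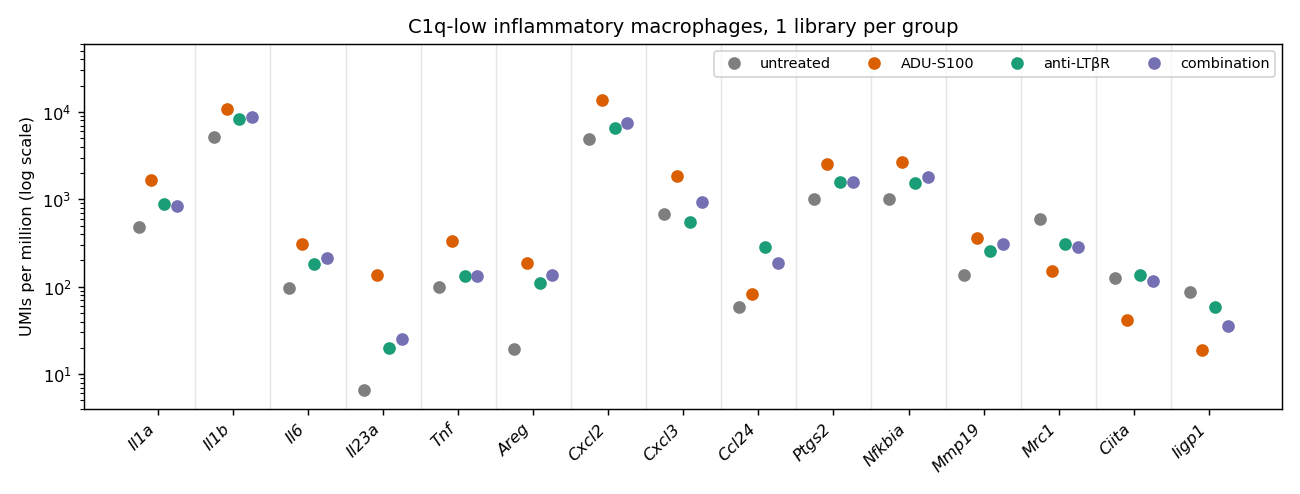
Levels of 15 genes in C1q-low inflammatory macrophages of each library, in CPM on a log axis. Each point is 1 library, with no replicate. Il1a, Il1b, Il23a, Tnf, Cxcl2, Cxcl3, Ptgs2 and Nfkbia are highest with ADU-S100, Ccl24 is highest with anti-LTβR (283), and Mrc1, Ciita and Iigp1 are lowest with ADU-S100.

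The same ratios were read in the neighbouring populations, side by side and without a test of any difference. For ADU-S100 against untreated, Il1b had log2 ratios of 1.09 in the members, 1.22 in C1q-high and 0.93 in remodelling macrophages. Tnf had 1.75, 1.62 and 1.92 in that order, and Cxcl2 had 1.48, 1.83 and 1.10. All 3 populations thus held more of these cytokine RNAs in the ADU-S100 library. Mrc1 had -1.98, -0.31 and -1.74, and Iigp1 -2.20, -0.54 and 0.48. For anti-LTβR against untreated, Areg had 2.46, 2.12 and 2.52.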

How the data were processed

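RNA of live CD45+ cells sorted from KPC tumours was measured in 4 libraries, 1 per treatment group, each from pooled tumours, in the second of 2 experiments. The authors deposited raw UMI counts per gene and barcode for each library, filtered to cells. Per the file headers they were made with Cell Ranger 8.0.1, whereas the submitters' processing notes name Cell Ranger 7.1.0 and mm10. The labels and the methods also name different kits for the 5′ ends. Counts were read as deposited, for 33696 genes.

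Members were chosen with the rule given above, and 1 gene of that rule, with the values that need it, and some other results are not reported here. The members and gene lists were chosen with earlier results of these data known. Counts were summed over the members of a library and scaled to counts per 1000000 UMIs (CPM). Log2 ratios had 0.5 UMI added to each sum and exact binomial intervals, levels exact Poisson intervals, shares Clopper-Pearson intervals and share ratios log-normal intervals. A gene was compared with at least 200 UMIs over both libraries, or at least 50 over both populations in each library. Named were genes of the lists and, per comparison, up to 5 higher and 5 lower genes past 2-fold of which no cell held over 20% of the UMIs of either library, without immunoglobulin, T cell receptor, mitochondrial, ribosomal, haemoglobin, sex-linked and predicted genes, genes of the rule and markers of other cell types. Scrublet's automatic threshold marked 0, 0, 1 and 0 barcodes and so did not work here. No barcode was removed as a doublet, and removal of the 304, 949, 856 and 1065 barcodes with the highest scores, which held 10, 36, 45 and 60 members, was an alternative. The scripts were tested on simulated data. Python 3.11.15 with numpy 2.4.6, scipy 1.17.1, pandas 2.3.3, scanpy 1.11.5 and matplotlib 3.10.9 was used.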

Additional observations from a re-analysis of the deposited data

Results flagged for a closer look

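For 3 genes the difference made by one agent had opposite signs without and with the other agent, past 2-fold both ways. These differences were not tested, since each group is 1 library. Ckap2l had a log2 ratio of 1.36 for anti-LTβR against untreated and -1.28 for the combination against ADU-S100. For the same pair of comparisons Trerf1 had -1.10 and 1.42, and Hdac9 had -1.44 and 1.64, where 1 cell held 23.4% of the Hdac9 UMIs of the ADU-S100 members and 28.8% of those of the combination. The levels were 25.3, 193, 65.7 and 79.6 CPM for Ckap2l, 145.5, 28.5, 67.9 and 76.5 CPM for Trerf1 and 138, 21.6, 51.0 and 67.5 CPM for Hdac9.

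Barcodes outside the limits on genes and mitochondrial RNA also met the gene conditions, 13, 24, 15 and 21 of them. Over 6% mitochondrial UMIs were held by 12, 23, 15 and 20 of these barcodes, and over 5000 genes by 1, 1, 0 and 1. They entered no comparison.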

How the results depend on the processing

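The alternatives with neutrophil-like barcodes out of the denominator, with S100a8 and S100a9 at 0 UMIs and with both populations thinned were chosen after seeing the data. No paired analysis was possible because each group is 1 library, and the cause of each move below was not tested unless named. The share ratio of ADU-S100 to untreated was 1.803 with every barcode thinned, 1.65 among monocytes and macrophages, 1.90 without neutrophil-like barcodes and 1.01 with S100a8 and S100a9 at 0. The ratio of the combination to ADU-S100 turned to 0.981 when thinned, 0.983 with Csf1r detected, 0.846 among monocytes and macrophages and 0.842 without neutrophil-like barcodes, and was 1.32 with Csf3r at 0 and 1.51 with S100a8 and S100a9 at 0. The ratio of the combination to anti-LTβR was 0.703 with a stricter form of the rule and 0.690 with Csf1r detected. Other share ratios moved by less than their counting intervals.

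Counts of genes past 2-fold followed the UMI limit by construction. At 1000 and at 20 UMIs the higher and lower counts were 34 and 11, then 346 and 809 for ADU-S100, 10 and 2, then 276 and 321 for anti-LTβR, and 1 and 2, then 237 and 300 for the combination. Against ADU-S100 the combination had 1 and 10, then 458 and 184. Against anti-LTβR it had 1 and 8, then 150 higher and 193 lower. Median-of-ratios scaling gave 161 higher and 45 lower for ADU-S100 and 50 lower for the combination against it. Thinning gave 68 and 55 for anti-LTβR and 40 lower for the combination. The mean over cells gave 44 and 31 lower for these, and 13 higher and 7 lower for the combination against anti-LTβR. For the combination against ADU-S100, doublet removal gave 28 higher, and S100a8 and S100a9 at 0 gave 27 higher and 14 lower.

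Jchain in the combination against anti-LTβR turned to 0.34 with the mean over cells and 0.035 when thinned. Thinned shares of members with a UMI, for untreated, ADU-S100 and anti-LTβR, were 29.4, 48.5 and 45.8% for Nos2, 33.3, 38.4 and 41.9% for Clec5a and 31.4, 51.0 and 49.2% for Ecm1, and 19.8 and 11.8% for Il6 in the ADU-S100 and anti-LTβR libraries. Among named genes past 2-fold, 1174 values under an alternative kept their direction and side of the limit, 91 fell short of it and 2 turned. For the main results the totals were less stable, where 117 values under an alternative held, 51 moved and 4 turned. Of 100 list medians, 33 changed sign under at least 1 alternative, each of them within 0.156 of 0 as reported. Depth limits the untreated and combination sums most, and genes low in both were not detectable as different.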
